A study of Mus musculus with 30 samples.

Results

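The genes described here were Nr1i3 and Nr1i2, which encode the mouse nuclear receptors CAR and PXR, together with Rxra, Tomm40l, Apoa2, Gsk3b and Tmem223. They were 7 of the 18193 genes that had a probe set annotated to a single gene on the array, and they were read by 16 of the 45037 probe sets. Rxra encodes the common dimer partner of both receptors, Tomm40l and Apoa2 follow Nr1i3 on chromosome 1, Gsk3b lies beside Nr1i2 on chromosome 16, and Tmem223 on chromosome 19 was included because its signal marks 1 genotype. Every probe set annotated to 1 of these genes and to no other was used. The members were chosen by their measured signals in livers given corn oil, and their positions, so the genotype differences under corn oil are given below as a description, and tests were kept to the treated livers. Results of all 30 arrays were known when the genes were chosen, so these tests are not independent of that choice.

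Liver RNA of adult male mice on a C57BL/6J background was hybridised to 30 Affymetrix expression arrays, in 10 groups of 3. The genotypes were wild type, hCAR/hPXR (humanised for both receptors), CARko/PXRko (both deleted) and PXRko (PXR deleted). Mice of the first 3 genotypes received corn oil as vehicle, 600 mg/kg of 1,4-dichlorobenzene (DCB, an aromatic solvent) or 160 mg/kg of the antiandrogen cyproterone acetate (CPA), each day by oral gavage, and PXRko mice received corn oil only. The corn oil and DCB groups are labelled 3 days. For CPA the label is 6 days in the wild type and humanised groups and 3 days in the CARko/PXRko group, whereas the treatment protocol gives 3 days throughout, so each CPA effect in the first 2 of these genotypes also carries a labelled difference in duration from its control. The construction of the humanised and deleted alleles is not given in the sources used here, and the array holds mouse probe sets, so the human receptors were not measured. The study design states 5 mice per group. The labels do not say that each array is a separate mouse, and the p-values therefore measure the spread between these arrays.

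CAR and PXR are ligand-responsive nuclear receptors that bind DNA with RXRA and switch on genes of drug oxidation, conjugation and transport in the liver. CAR is held in the cytoplasm of the hepatocyte with chaperones until it is released, by direct ligands or through loss of growth factor signalling, and PXR responds to many steroids and drugs. Both are strongly expressed in hepatocytes, and Cyp2b10 is the usual mouse target of CAR.

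In the RefSeq gene table for GRCm38.p6, Nr1i3 stood between Pcp4l1 and Tomm40l, and Apoa2 came next. The annotated span of Nr1i3 overlapped that of Tomm40l by 1044 bases, and that of Tomm40l overlapped Apoa2 by 951 bases. The first Apoa2 start lay 7594 bases from the Nr1i3 start. Nr1i2 stood between the snoRNA gene Gm25617 and Maats1, with Gsk3b next beyond the snoRNA gene and its start 205823 bases from that of Nr1i2. Rxra stood between the lncRNA genes Gm39776 and Gm39777, and Tmem223 between Nxf1 and Tmem179b. RefSeq held promoter windows for 5 of the 7 genes, from 250 bases before to 50 bases after the gene start. The windows of both receptor genes and the first window of Apoa2 are shown, because these starts border the stretches of chromosome in which the signals below varied with genotype. The Nr1i3 window is chr1:171213720-171214019 (plus strand), the Apoa2 window is chr1:171221314-171221613 (plus strand) and the Nr1i2 window is chr16:38294775-38295074 (minus strand), all in GRCm38.p6 and written 5′ to 3′.
Nr1i3: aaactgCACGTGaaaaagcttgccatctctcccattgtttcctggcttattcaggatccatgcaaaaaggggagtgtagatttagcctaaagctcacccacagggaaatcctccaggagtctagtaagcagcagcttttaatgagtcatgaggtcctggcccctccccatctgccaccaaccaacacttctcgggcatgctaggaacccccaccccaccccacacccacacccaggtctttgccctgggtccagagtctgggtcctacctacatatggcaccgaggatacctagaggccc
Apoa2, first start: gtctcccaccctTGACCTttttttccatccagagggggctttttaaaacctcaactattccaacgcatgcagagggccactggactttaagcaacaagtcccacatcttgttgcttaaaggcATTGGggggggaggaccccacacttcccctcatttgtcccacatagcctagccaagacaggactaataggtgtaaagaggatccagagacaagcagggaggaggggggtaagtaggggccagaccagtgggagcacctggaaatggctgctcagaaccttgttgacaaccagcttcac
Nr1i2: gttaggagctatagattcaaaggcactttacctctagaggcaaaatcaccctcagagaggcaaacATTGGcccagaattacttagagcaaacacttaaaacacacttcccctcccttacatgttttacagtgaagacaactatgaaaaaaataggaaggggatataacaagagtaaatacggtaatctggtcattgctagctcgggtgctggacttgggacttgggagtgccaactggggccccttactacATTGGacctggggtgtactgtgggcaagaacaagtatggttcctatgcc
Capitals mark matches on either strand to the motifs searched, which were the nuclear receptor recognition elements AGGTCA and, in its variant form, AGTTCA, the TATA box TATAAA, the CCAAT box, the GC box GGGCGG, and the E-box CACGTG. No searched motif overlapped another in these 3 windows. Nr1i3 held CACGTG, which was present in 7.15% of the 32851 promoter windows of the table. Nr1i2 held 2 matches to CCAAT, present in 37.4% of windows. The first Apoa2 window held AGGTCA, present in 16.3% of windows, and CCAAT. A match describes these letters only and does not show that a factor binds there.

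The mouse Nr1i3 signal was high in wild type livers and low in hCAR/hPXR and CARko/PXRko livers, whatever the treatment. It was also high in PXRko livers, which were given corn oil only. Nr1i3 had a single probe set, 1425392_a_at, whose deposited values are log2 signals. Under corn oil it read 9.32, 9.37 and 10.09 in wild type livers and 10.09, 9.58 and 9.73 in PXRko livers. Under corn oil it read 6.44, 6.05 and 6.42 in hCAR/hPXR livers and 6.51, 6.11 and 6.10 in CARko/PXRko livers. These 2 sets of groups did not overlap, and PXRko overlapped wild type. The corn oil difference from wild type was -3.29 ± 0.21 for hCAR/hPXR (SE, 3 arrays per group), -3.35 ± 0.21 for CARko/PXRko and 0.20 ± 0.21 for PXRko.

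The treated livers, measured on other arrays, gave the same pattern, but their results were also known when the genes were chosen. The tests below are therefore not independent of that choice. With DCB, Nr1i3 read 9.75, 10.60 and 9.90 in wild type, 6.56, 6.82 and 6.26 in hCAR/hPXR and 6.51, 6.23 and 6.16 in CARko/PXRko livers. With CPA it read 10.47, 10.27 and 10.50 in wild type, 6.68, 6.74 and 6.47 in hCAR/hPXR and 6.86, 6.81 and 6.76 in CARko/PXRko livers. Every wild type array lay above every array of the other 2 genotypes. Under DCB the difference from wild type was -3.54 ± 0.21 in hCAR/hPXR mice (11.6-fold lower, limma adjusted p = 1.81e-10) and -3.79 ± 0.21 in CARko/PXRko mice (13.8-fold lower, limma adjusted p = 4.00e-11). Under CPA it was -3.78 ± 0.21 in hCAR/hPXR mice (limma adjusted p = 4.09e-11). The hCAR/hPXR and CARko/PXRko livers differed under DCB by 0.25 ± 0.21, with an interval from -0.19 to 0.69 (95%) and a limma adjusted p of 0.543. In both genotypes the Nr1i3 signal stayed above the median of each array (5.36 to 5.44), so its level was above the middle of the array even where the gene is labelled as deleted. Which exons are removed, and where the probes fall relative to them, was not analysed here.

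The Nr1i2 signal was high only on the wild type arrays. Probe set 1425723_at read 7.79, 6.75 and 8.04 in wild type livers given corn oil and 4.39, 4.71 and 4.33 in PXRko livers. It read 4.92, 4.62 and 4.80 in hCAR/hPXR livers and 4.29, 4.70 and 4.76 in CARko/PXRko livers given corn oil. The 3 other genotypes overlapped each other and none reached the lowest wild type array. The corn oil difference from wild type was -3.05 ± 0.23 for PXRko, -2.74 ± 0.23 for hCAR/hPXR and -2.94 ± 0.23 for CARko/PXRko mice.

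With DCB, Nr1i2 read 7.24, 7.85 and 7.69 in wild type, 4.57, 4.73 and 4.97 in hCAR/hPXR and 4.25, 4.44 and 4.53 in CARko/PXRko livers. With CPA it read 8.06, 7.67 and 7.63 in wild type, 4.72, 4.43 and 4.91 in hCAR/hPXR and 4.66, 4.73 and 4.59 in CARko/PXRko livers. The wild type arrays again stood apart from all others. Nr1i2 exceeded the array median on the 9 wild type arrays alone, so it passed the filter on dim genes only through the group in which it is high and had to differ. Its differences are therefore given as a description, against a signal under the median. Under DCB the difference from wild type was -2.84 ± 0.23 in hCAR/hPXR and -3.19 ± 0.23 in CARko/PXRko livers, and under CPA it was -3.10 ± 0.23 in hCAR/hPXR livers. The second probe set of Nr1i2, 1451807_at, read 6.83 to 7.54 on the 9 wild type arrays and 4.11 to 4.73 on the other 21, and its 3 differences from wild type in treated livers lay between -2.77 and -2.60.

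**Figure D1:**
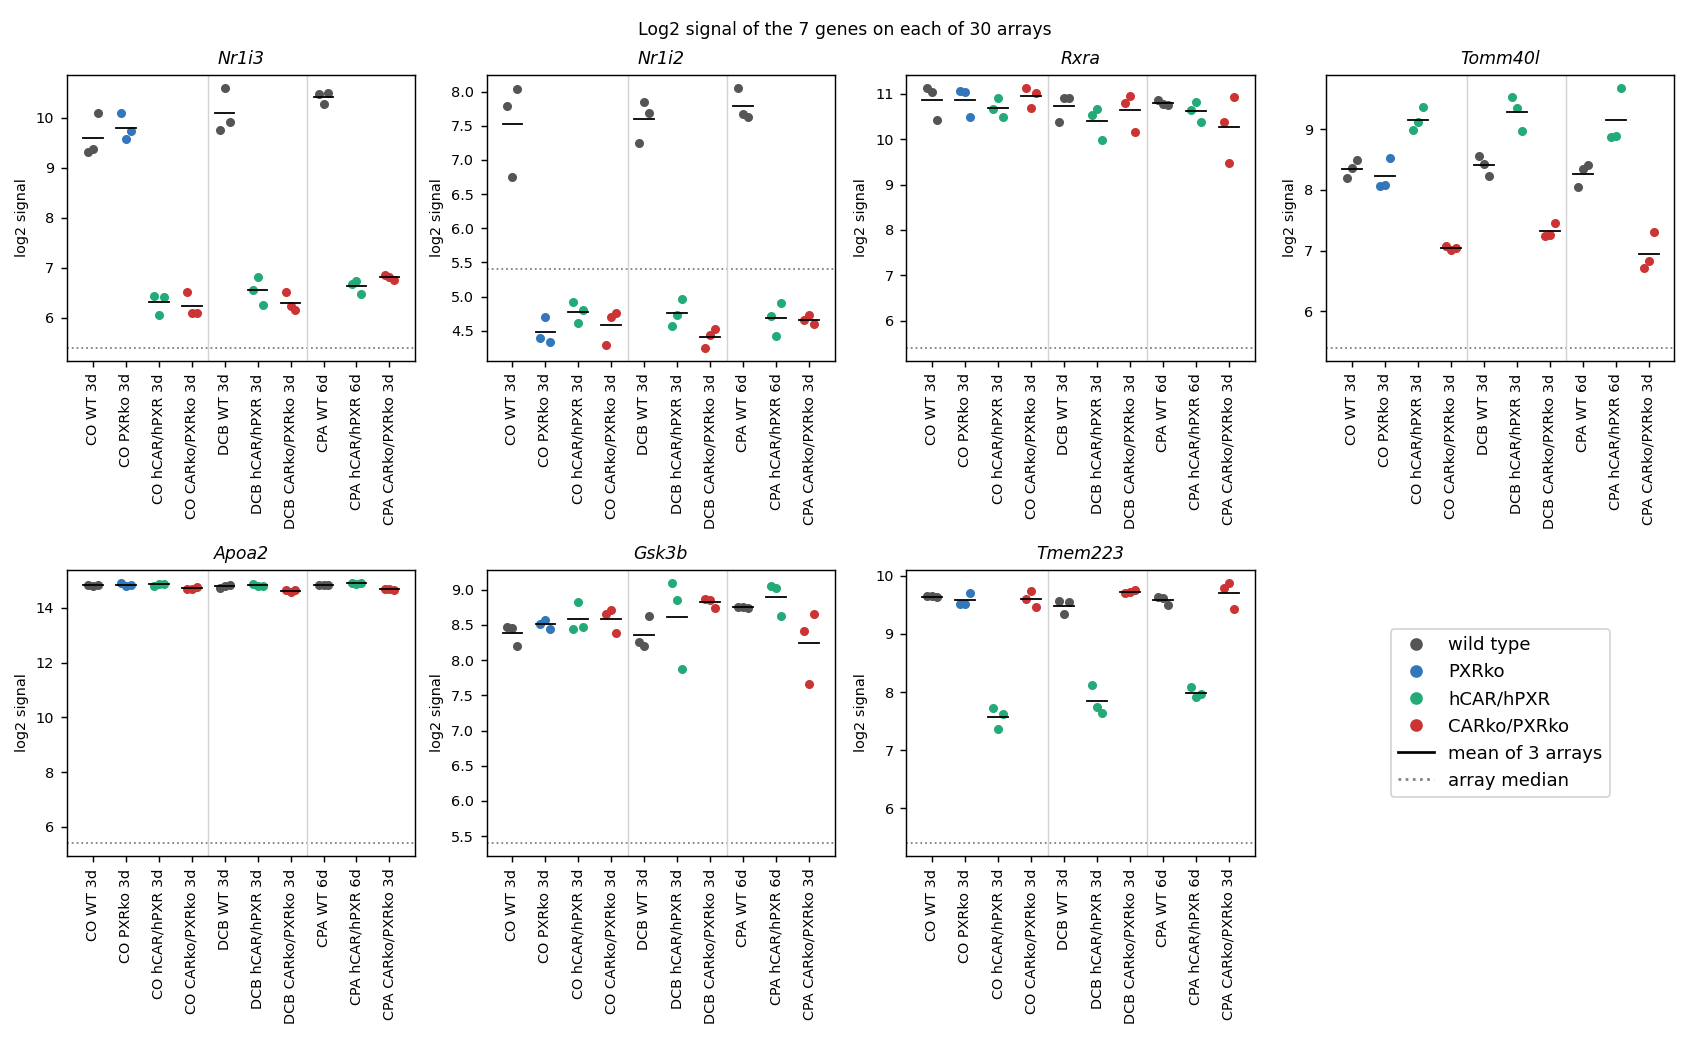
Log2 signal (y axis) of the highest-mean probe set of each of the 7 genes on every array, by group (x axis); points are single arrays coloured by genotype, black bars are means of 3 arrays and the dotted line is the array median. Nr1i3 is high in wild type and PXRko livers, Nr1i2 in wild type livers alone, Tomm40l splits into 3 levels, and Tmem223 is low on the hCAR/hPXR arrays.

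Rxra, the shared dimer partner, stayed at a high signal in all 10 groups. Probe set 1454773_at ranged from 10.39 to 11.14 with a median of 10.87 on the 9 wild type arrays, from 9.98 to 10.92 with a median of 10.64 on the 9 hCAR/hPXR arrays and from 9.48 to 11.13 with a median of 10.81 on the 9 CARko/PXRko arrays. On the 3 PXRko arrays it ranged from 10.48 to 11.07. The genotypes overlapped, and the 4 genotype differences in treated livers lay between -0.35 and -0.10 with limma adjusted p-values of 0.670 to 0.950. The probe set 1425762_a_at gave 7.68 to 8.53 over all arrays and passed no genotype test either, and 1430497_at, at 3.75 to 4.58, was under the array median throughout and was not tested after the filter.

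Tomm40l, a relative of the channel subunit of mitochondrial protein import, showed 3 levels in its brighter probe set, 1429382_at. Under corn oil it read 8.19, 8.36 and 8.50 in wild type, 8.06, 8.08 and 8.52 in PXRko, 8.99, 9.12 and 9.36 in hCAR/hPXR and 7.07, 7.01 and 7.04 in CARko/PXRko livers. With DCB it read 8.55, 8.42 and 8.23 in wild type, 9.52, 9.35 and 8.96 in hCAR/hPXR and 7.23, 7.26 and 7.46 in CARko/PXRko livers. With CPA it read 8.05, 8.35 and 8.40 in wild type, 8.87, 8.88 and 9.68 in hCAR/hPXR and 6.72, 6.83 and 7.30 in CARko/PXRko livers. In order, the 9 CARko/PXRko arrays came lowest at 6.72 to 7.46, the 12 wild type and PXRko arrays followed at 8.05 to 8.55, and the 9 hCAR/hPXR arrays came highest at 8.87 to 9.68, with no overlap between these 3 levels. The corn oil differences from wild type were -1.31 ± 0.20 in CARko/PXRko, 0.81 ± 0.20 in hCAR/hPXR and -0.13 ± 0.20 in PXRko mice.

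Under DCB, Tomm40l was 1.96 ± 0.20 higher in hCAR/hPXR than in CARko/PXRko mice (3.89-fold, limma adjusted p = 3.90e-06), or 1.06 with the mean of its 2 probe sets. It was lower in CARko/PXRko than in wild type mice by a difference of -1.09 ± 0.20 (limma adjusted p = 0.0301). Without DCB CARko/PXRko replicate 2, DCB wild type replicate 1 or DCB wild type replicate 2, that call was lost, with limma adjusted p-values of 0.152, 0.149 and 0.117 and differences of -1.06, -1.01 and -1.08. Transcripts of skeletal muscle were raised on 2 of the 3 DCB CARko/PXRko arrays, by 2.57 and 7.08 over the median of 17 muscle genes, on 1 CARko/PXRko and 1 PXRko array given corn oil, by 7.48 and 1.65, and on the other 26 arrays the value lay between -0.16 and 0.19. Without these 4 arrays the Tomm40l difference was -1.17 and was not called (limma adjusted p = 0.653, 1 array left in the DCB CARko/PXRko group, taken to vary like the other groups). The hCAR/hPXR mice exceeded wild type by 0.88 ± 0.20 under both compounds, with limma adjusted p-values of 0.124 under DCB and 0.0566 under CPA, so neither difference passed the test although the arrays did not overlap. With the mean of both probe sets these differences were 0.12 under DCB and 0.01 under CPA.

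The dimmer Tomm40l probe set, 1455614_at, ordered the genotypes differently. It ranged from 4.43 to 5.35 on the 9 wild type arrays, from 5.20 to 5.60 on the PXRko arrays, from 3.77 to 4.36 on the hCAR/hPXR arrays and from 3.92 to 4.26 on the CARko/PXRko arrays. The hCAR/hPXR and CARko/PXRko arrays thus lay below every wild type array and the PXRko arrays did not, while the brighter probe set was highest in hCAR/hPXR. This probe set exceeded the array median on 1 array and so was tested only in a fit of all 34945 single-gene probe sets without the filter. There the hCAR/hPXR difference from wild type under CPA was -0.86 ± 0.17 and was called (limma adjusted p = 0.0300), while the DCB differences were -0.64 ± 0.17 in hCAR/hPXR (limma adjusted p = 0.315) and -0.81 ± 0.17 in CARko/PXRko mice (limma adjusted p = 0.106). The direction of the hCAR/hPXR difference for Tomm40l therefore depended on the probe set.

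Apoa2, which encodes a main protein of high-density lipoprotein, was among the brightest signals. Under corn oil it read 14.85, 14.81 and 14.83 in wild type, 14.90, 14.82 and 14.84 in PXRko, 14.81, 14.89 and 14.89 in hCAR/hPXR and 14.71, 14.68 and 14.75 in CARko/PXRko livers. With DCB it read 14.73, 14.79 and 14.85 in wild type, 14.89, 14.82 and 14.82 in hCAR/hPXR and 14.67, 14.57 and 14.66 in CARko/PXRko livers. With CPA it read 14.83, 14.85 and 14.83 in wild type, 14.92, 14.88 and 14.90 in hCAR/hPXR and 14.69, 14.71 and 14.65 in CARko/PXRko livers. The CARko/PXRko arrays were lowest within each treatment. Over all treatments their highest array, 14.75, passed the lowest wild type array, 14.73. The DCB difference of CARko/PXRko from wild type was -0.16 ± 0.07 (limma adjusted p = 0.576) and that of hCAR/hPXR from CARko/PXRko was 0.21 ± 0.07 (limma adjusted p = 0.223), and neither passed the test. These SEs are moderated, so they also draw on the spread of all other genes tested. The SDs of Apoa2 within the 10 groups were 0.01 to 0.06. The brightest probe set of each array read 15.21 to 15.34, so Apoa2 lay near the top of the scale.

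**Figure D2:**
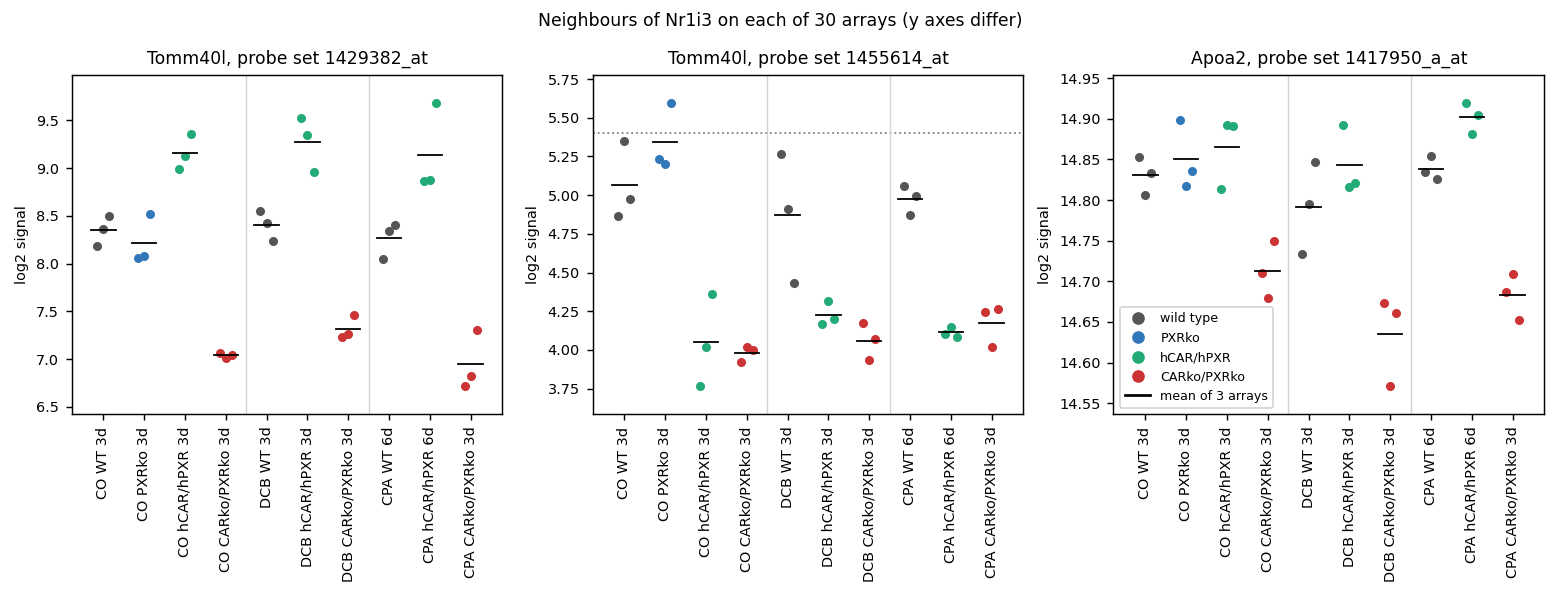
Log2 signal (y axes, with different ranges) of both Tomm40l probe sets and of Apoa2 on every array, by group (x axis); points are single arrays coloured by genotype, black bars are means of 3 arrays and the dotted line is the array median. The brighter Tomm40l probe set is highest in hCAR/hPXR livers at 8.87 to 9.68, whereas the dimmer one is low there at 3.77 to 4.36.

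Gsk3b encodes a kinase that marks beta-catenin for breakdown and also acts on glycogen synthase. Its highest-mean probe set, 1437001_at, ranged from 8.20 to 8.76 with a median of 8.47 on the wild type arrays, from 7.88 to 9.10 with a median of 8.82 on the hCAR/hPXR arrays and from 7.66 to 8.87 with a median of 8.66 on the CARko/PXRko arrays. These ranges overlapped, and the 4 genotype differences in treated livers lay between -0.21 and 0.46 with limma adjusted p-values of 0.609 to 0.912. Of the 24 genotype differences over its 6 probe sets in treated livers, limma called 0, with 2 at an unadjusted p under 0.05 and a lowest adjusted p of 0.170, for 1439931_at in hCAR/hPXR against wild type under CPA (0.94 ± 0.26). On the 3 PXRko arrays, 1437001_at ranged from 8.44 to 8.57. There 1451020_at read 5.89 to 6.25, below the 9 wild type arrays at 6.48 to 7.22 (6.48 to 6.86 under corn oil). The corn oil difference was -0.56, given as a description. The hCAR/hPXR livers given corn oil also lay below wild type on this probe set, at 6.10 to 6.40. The CARko/PXRko livers given corn oil overlapped wild type, at 6.27 to 6.60. In PXRko livers the other 5 probe sets differed from wild type in the opposite direction under corn oil, by up to 0.31, and overlapped it.

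Tmem223, a transmembrane protein gene, was low on the hCAR/hPXR arrays and nowhere else. Under corn oil it read 9.65, 9.65 and 9.63 in wild type, 9.51, 9.51 and 9.71 in PXRko, 7.72, 7.36 and 7.63 in hCAR/hPXR and 9.61, 9.75 and 9.46 in CARko/PXRko livers. With DCB it read 9.56, 9.34 and 9.54 in wild type, 8.13, 7.74 and 7.65 in hCAR/hPXR and 9.71, 9.73 and 9.75 in CARko/PXRko livers. With CPA it read 9.63, 9.62 and 9.50 in wild type, 8.08, 7.92 and 7.96 in hCAR/hPXR and 9.79, 9.88 and 9.42 in CARko/PXRko livers. The 9 hCAR/hPXR arrays, at 7.36 to 8.13, did not overlap the other 21, at 9.34 to 9.88. The corn oil difference of hCAR/hPXR from wild type was -2.07 ± 0.13. In treated livers the difference from wild type was -1.64 ± 0.13 under DCB (3.13-fold lower, limma adjusted p = 3.68e-08) and -1.60 ± 0.13 under CPA (3.02-fold lower, limma adjusted p = 3.44e-08). Against CARko/PXRko mice under DCB it was -1.89 ± 0.13 (limma adjusted p = 3.86e-09). Tmem223 was included because it marks this genotype, so these tests are not independent of that choice.

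Over the 4 genotype comparisons in treated livers, 11 of the 28 tests on the 7 genes were called. Of these, 3 are Nr1i2, which passed the filter only where it is high, and 8 of 24 remain for the other 6 genes. Tmem223 was picked because it marks a genotype, so the counts describe the chosen genes and support nothing about them. Of 12795 genes tested, the share called was 0.0391% for hCAR/hPXR against wild type under DCB, where 3 of the 7 genes were called. The share was also 0.0391% for CARko/PXRko against wild type under DCB (3 of 7), 0.242% for hCAR/hPXR against CARko/PXRko under DCB (2 of 7) and 0.274% for hCAR/hPXR against wild type under CPA (3 of 7). The medians over the 7 genes were -0.35, -0.16, 0.21 and -0.18, beside medians over all genes of -0.03, -0.00, -0.03 and -0.01 in the same order. In both DCB comparisons with wild type, 5 genes were called in all. Of 21724 single-gene probe sets that passed the filter, 0.0368%, 0.0414%, 0.216% and 0.235% were called in the same order, and without the filter 0.02%, 0.0229%, 0.123% and 0.132% of 34945.

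The genes bordering these loci were then read, 10 with a probe set on each side. No called genotype difference was found among them in treated livers. Around Nr1i3, limma called 0 of 60 tests on 15 genes other than Tomm40l and Apoa2, with 5 at an unadjusted p under 0.05. Around Nr1i2 it called 0 of 52 tests on 13 genes other than Gsk3b, with 5 at an unadjusted p under 0.05. Around Rxra it called 0 of 56 tests on 14 genes, with 3 under 0.05 before adjustment, and around Tmem223 0 of 64 tests on 16 genes, with 9. Over all 12795 genes, 1061 were under 0.05 before adjustment for hCAR/hPXR against wild type under DCB and 1093 for CARko/PXRko against wild type. The number was 1975 for hCAR/hPXR against CARko/PXRko under DCB and 1176 for hCAR/hPXR against wild type under CPA. Pcp4l1, the direct neighbour of Nr1i3 on its other side, differed between hCAR/hPXR and wild type under CPA by -0.70 ± 0.38 (limma adjusted p = 0.616), and its signal ranged from 5.27 to 7.44 over all arrays. Tmem179b, beside Tmem223, read 8.95 ± 0.06 (SD, n = 3) in wild type and 8.46 ± 0.12 in hCAR/hPXR livers given CPA, a difference of -0.49 ± 0.15 that did not pass the test (limma adjusted p = 0.248). Nxf1, an mRNA export factor on the other side of Tmem223, ranged from 7.78 to 8.69 on the hCAR/hPXR arrays and overlapped wild type throughout. Maats1, beside Nr1i2, read 4.04 to 4.56 on all arrays and was too dim to test.

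**Figure D3:**
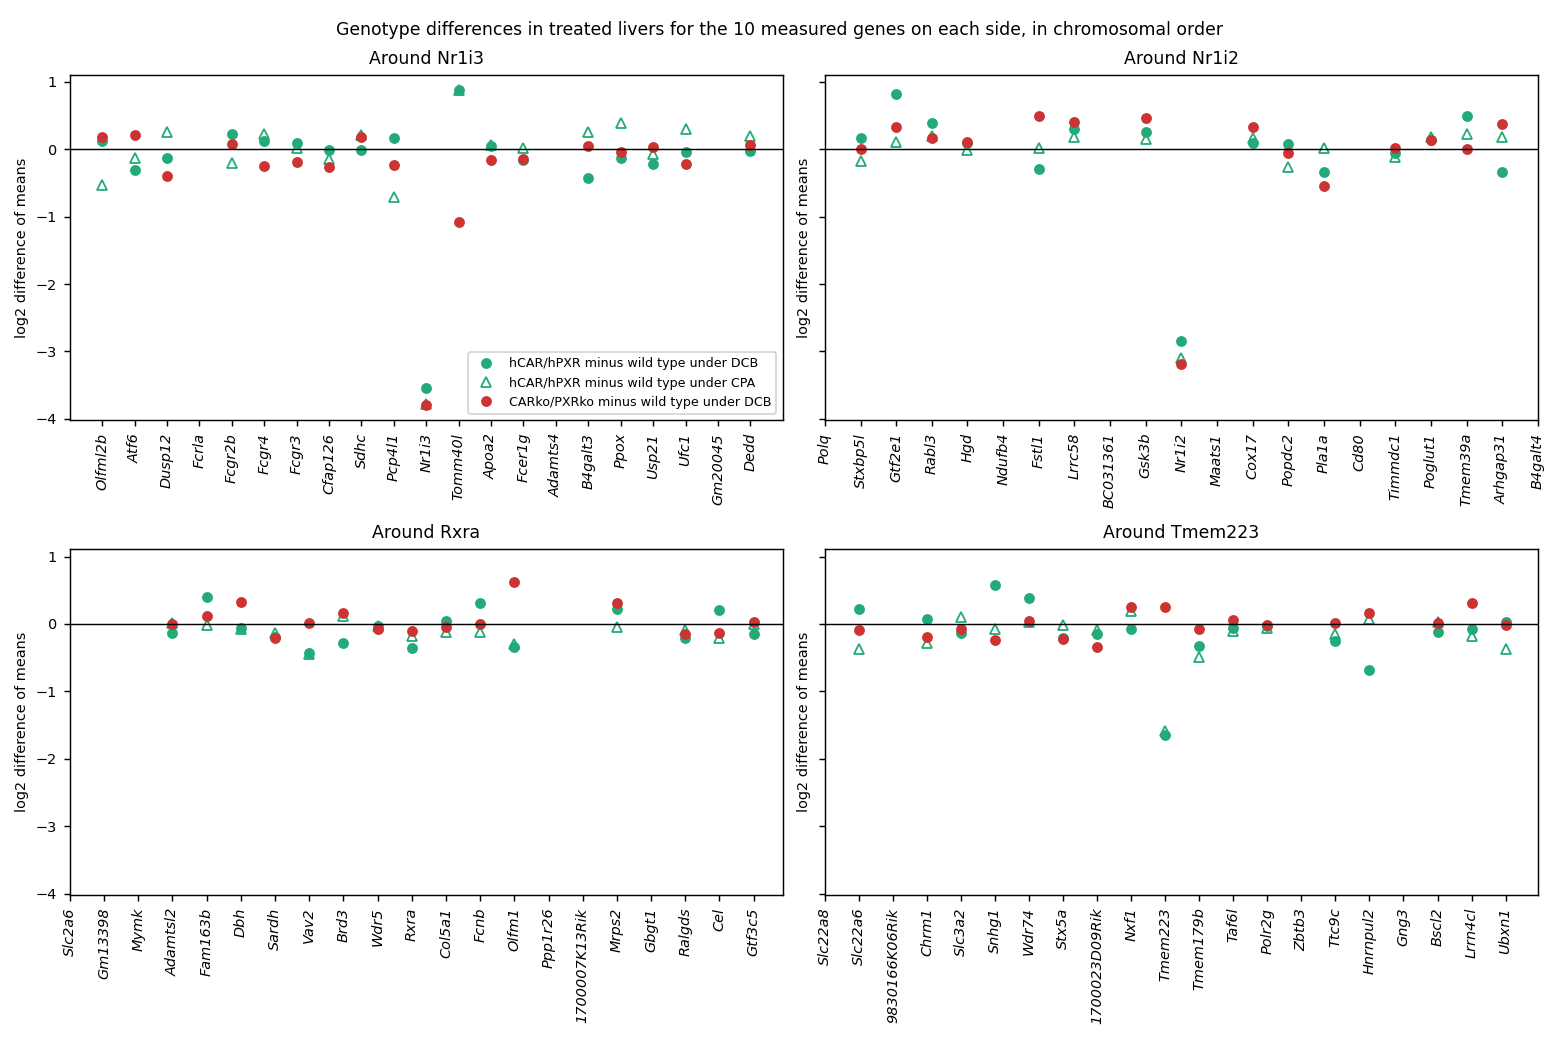
Log2 difference of group means in treated livers (y axis) for the genes with a probe set on each side of 4 loci, in chromosomal order (x axis); filled green circles are hCAR/hPXR minus wild type under DCB, open green triangles the same under CPA and red circles CARko/PXRko minus wild type under DCB, and genes with no point were too dim to test. Nr1i3, Nr1i2, Tomm40l and Tmem223 stand apart from their neighbours, while Rxra does not.

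Neither compound produced a called change in any of the 7 genes. Of the 42 treatment tests limma called 0, with 5 at an unadjusted p under 0.05 and a lowest adjusted p of 0.0575. With array weights, the alternative that called the most, 4 were called. The shares of all genes called were 0.735% for DCB in wild type, 7.64% for DCB in hCAR/hPXR, 0.117% for DCB in CARko/PXRko, 1.12% for CPA in wild type, 4.42% for CPA in hCAR/hPXR and 5.49% for CPA in CARko/PXRko livers. At an unadjusted p under 0.05 there were 1295, 2940, 1036, 1313, 2044 and 2696 of 12795 genes in the same order. The largest treatment difference was that of Nr1i3 under CPA in wild type mice, 0.82 ± 0.21 (1.77-fold, limma adjusted p = 0.0575), with every CPA array above every corn oil array. It was called without corn oil wild type replicate 3, the highest control array (1.07, limma adjusted p = 0.0154). It was also called without DCB wild type replicate 1 or 2 or DCB hCAR/hPXR replicate 3, which enter only the shared spread (limma adjusted p of 0.0489, 0.0300 and 0.0443). Nr1i3 also read 0.57 ± 0.21 higher under CPA in CARko/PXRko mice (limma adjusted p = 0.120) and 0.49 ± 0.21 higher under DCB in wild type mice (limma adjusted p = 0.396).

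Tmem223 in hCAR/hPXR mice read 0.42 ± 0.13 higher under CPA (limma adjusted p = 0.0708). It was called without CPA CARko/PXRko replicate 3 or DCB hCAR/hPXR replicate 1, arrays that enter only the shared spread (limma adjusted p of 0.0427 and 0.0425). Rxra under CPA in CARko/PXRko mice read 10.39 and 9.48 on 2 arrays and 10.94 on the third, beside 10.70 to 11.13 under corn oil, a difference of -0.68 ± 0.28 (limma adjusted p = 0.170). Without CPA CARko/PXRko replicate 3, the highest of these, the difference was -1.01 and was called (limma adjusted p = 0.0343). The dimmer Rxra probe set 1425762_a_at read 8.15 to 8.24 in the same 3 arrays and 7.72 to 8.26 under corn oil. The treatment differences of Nr1i2 lay between -0.17 and 0.26, those of Tomm40l between -0.09 and 0.28 and those of Apoa2 between -0.08 and 0.04. For Gsk3b they lay between -0.35 and 0.37, and over its 6 probe sets limma called 0 of 36 treatment tests, with 6 at an unadjusted p under 0.05.

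**Figure D4:**
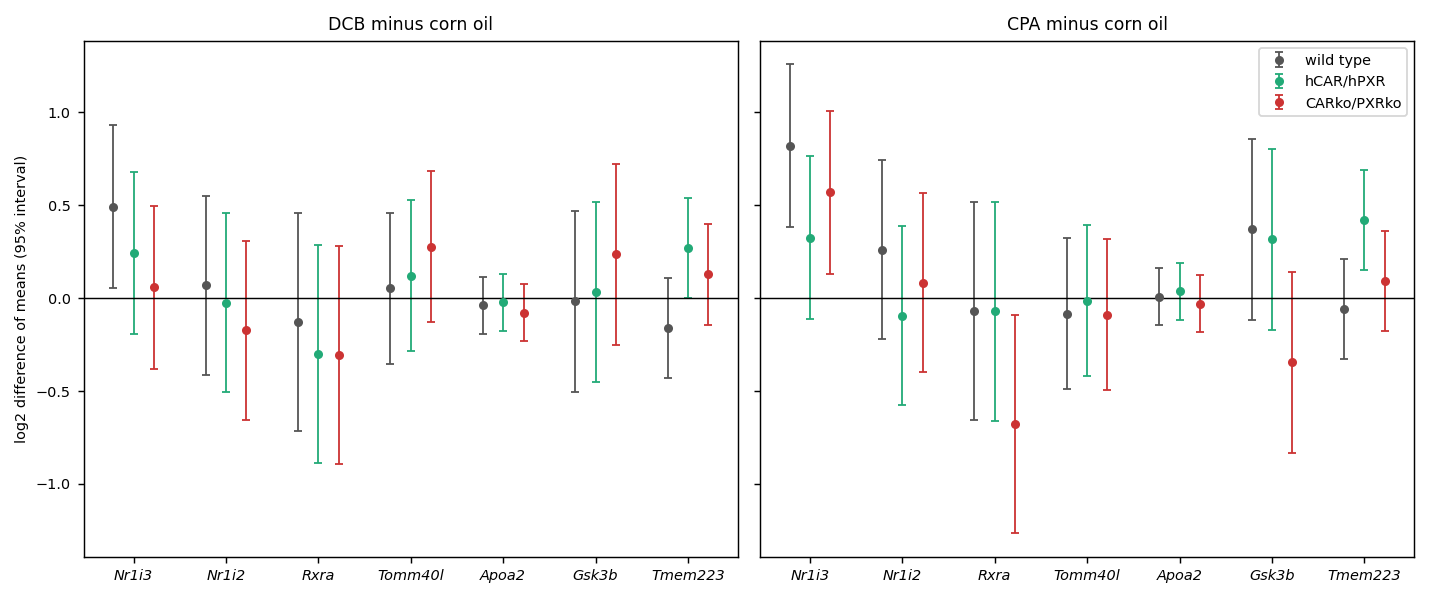
Log2 difference of group means from corn oil (y axis) for each of the 7 genes (x axis) under DCB (left) and CPA (right), by genotype; points are differences of means of 3 arrays and bars are 95% intervals of the limma fit. No difference was called, and the highest point is Nr1i3 under CPA in wild type livers at 0.82.

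Whether a treatment effect differed between genotypes was tested on the difference of effects. Limma called 0 of 28 such tests on the 7 genes, with 3 at an unadjusted p under 0.05. Over all genes the share called was 0% for the DCB effect in either genotype against wild type (398 genes for hCAR/hPXR and 324 for CARko/PXRko at an unadjusted p under 0.05). For the CPA effect it was 0.0625% with hCAR/hPXR and 0.0703% with CARko/PXRko against wild type (628 and 967 genes at an unadjusted p under 0.05). The CARko/PXRko and wild type CPA groups differ in labelled duration as well as in genotype. For Nr1i3 the CPA effect in hCAR/hPXR mice minus that in wild type mice was -0.50 ± 0.30, with an interval from -1.12 to 0.12 (limma adjusted p = 1.00).

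Genes that act with the receptors were read from lists. Coactivators, corepressors and the other RXR genes numbered 12 tested, and limma called 0 of 72 treatment tests on them, with 9 at an unadjusted p under 0.05. Over all 12795 genes, 0.117% to 7.64% were called in these comparisons, and 1036 to 2940 genes had an unadjusted p under 0.05. Among 16 tested CAR and PXR target genes, the number that rose under DCB was 4 in wild type and 5 in hCAR/hPXR mice, beside the shares of all genes of 0.735% and 7.64%. Leaving out single arrays gave 2 to 5 and 4 to 7. Limma called 0 of them under DCB without either receptor (CARko/PXRko), where 0.117% of all genes were called. At an unadjusted p under 0.05 there were 4 of them, beside 1036 of all 12795 genes. Of the 3 DCB CARko/PXRko arrays, 2 held muscle transcripts as above, and on 1 the medians of brown fat and adrenal cortex markers were also raised, by 5.35 and 5.81. The part of these transcripts in the count was not tested. Under CPA, 5 target genes rose in wild type, 3 rose in hCAR/hPXR mice, while the CARko/PXRko livers had 3 that rose and 1 that fell, beside 1.12%, 4.42% and 5.49% of all genes called. Leaving out single arrays gave 4 to 7, 2 to 4 and 2 to 5. The median difference of the list under DCB was 0.60 in wild type, 0.70 in hCAR/hPXR and 0.27 in CARko/PXRko livers. Under CPA it was 0.84 in wild type, 0.42 in hCAR/hPXR and -0.08 in CARko/PXRko livers, while the median of all genes lay between -0.02 and 0.01 in each treatment comparison. Cyp2b10 rose by 3.98 ± 0.77 under DCB in wild type mice (limma adjusted p = 0.00830) and by 6.20 ± 0.77 under DCB in hCAR/hPXR mice (limma adjusted p = 3.51e-05). Under CPA it rose by 7.28 ± 0.77 in wild type (limma adjusted p = 6.73e-06), by 6.13 ± 0.77 in hCAR/hPXR (limma adjusted p = 2.76e-05) and by 3.51 ± 0.77 in CARko/PXRko livers (limma adjusted p = 0.00812). The wild type DCB call was lost without corn oil wild type replicate 1 (3.77, limma adjusted p = 0.0662) or DCB wild type replicate 1 (2.78, limma adjusted p = 0.0992). The CARko/PXRko call was lost without corn oil CARko/PXRko replicate 1 (2.92, limma adjusted p = 0.0666) or CPA CARko/PXRko replicate 2 (2.88, limma adjusted p = 0.0525).

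The remaining lists held few calls, and nearly all of these were lost when some single array was left out. Of 6 tested genes for the retention and activation of CAR, limma called 1 higher under DCB in wild type mice, beside 0.735% of all genes. It called 1 lower under DCB in hCAR/hPXR mice, beside 7.64%, and 1 lower under CPA in CARko/PXRko mice, beside 5.49%. Each count reached 0 without some array. Egfr, whose signalling holds CAR inactive, was the gene called in hCAR/hPXR mice (-2.07 ± 0.50, limma adjusted p = 0.0126), and it was not called without corn oil hCAR/hPXR replicate 2 (limma adjusted p = 0.0703) or DCB hCAR/hPXR replicate 1 (limma adjusted p = 0.0617). Of 11 tested regulators of the receptor genes, 2 were called lower under DCB in hCAR/hPXR mice, where 7.64% of all genes were called. These were Foxa3 and the glucocorticoid receptor gene Nr3c1. Neither was called without corn oil hCAR/hPXR replicate 1 (limma adjusted p of 0.119 and 0.0737) or DCB hCAR/hPXR replicate 3 (limma adjusted p of 0.0751 and 0.145), and without the latter the Nr3c1 difference went from -0.75 to -0.40. Among 17 other nuclear receptors, 1 was called lower under DCB and 1 under CPA in hCAR/hPXR mice, beside 7.64% and 4.42% of all genes. Each of these counts reached 0 without some array. A further 4 fell under CPA in CARko/PXRko mice (1 to 4 on leaving out single arrays), where 5.49% of all genes were called. Pparg, a receptor of fat storage, fell by 1.22 ± 0.22 there (limma adjusted p = 0.00182) and was called in all 30 fits that left out 1 array.

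In the pathways of the neighbouring genes no call held in all 30 of those fits. Limma called 1 of 11 apolipoprotein genes under CPA in hCAR/hPXR mice, where 4.42% of all genes were called. Of 6 genes of mitochondrial outer membrane import it called 1 under DCB in hCAR/hPXR mice, where 7.64% of all genes were called. That gene, Tomm40, was called in 6 of the 30 fits and not without the arrays with muscle transcripts (limma adjusted p = 0.0638). Of 12 genes of GSK3 and beta-catenin signalling, 2 were called lower under DCB and 1 under CPA in hCAR/hPXR mice, beside the same shares, and 1 lower under CPA in CARko/PXRko mice, beside 5.49%. In addition 1 was called lower in hCAR/hPXR than in wild type mice under CPA, where 0.274% of all genes were called. Ctnnb1, which encodes beta-catenin, was called in 10 of the 30 fits, and without DCB hCAR/hPXR replicate 3 its DCB difference went from -0.48 to -0.25 (limma adjusted p = 0.293). Of the 15 tested neighbours of Nr1i3, 1 fell under DCB and 4 under CPA in hCAR/hPXR mice, beside 7.64% and 4.42% of all genes called. Leaving out single arrays gave 0 to 2 and 2 to 5. Neighbours of other loci were called under DCB in the same mice. Wdr74, near Tmem223, differed by 0.72 ± 0.14 (limma adjusted p = 0.00238) and was called in all 30 fits that left out 1 array. Pla1a, near Nr1i2, differed by -0.62 ± 0.18 (limma adjusted p = 0.0373) and was called in 24 of them. Fcer1g, an Fc receptor subunit of macrophages, fell under CPA in hCAR/hPXR mice by 1.21 ± 0.21 (limma adjusted p = 0.00103). Of the other CPA calls near Nr1i3, the Fc receptor gene Fcgr2b differed by -1.09 ± 0.25 (limma adjusted p = 0.00994) and Fcgr4 by -1.12 ± 0.32 (limma adjusted p = 0.0435). They were called in 29 and 16 of the 30 fits that left out 1 array. Pcp4l1, the direct neighbour of Nr1i3, fell there too, by 1.33 ± 0.38 (limma adjusted p = 0.0458), but was called in 14 of the 30 fits that left out 1 array, and without corn oil hCAR/hPXR replicate 2 the limma adjusted p was 0.212. The median of 5 Kupffer and macrophage markers, relative to wild type livers given corn oil, lay between -1.26 and -0.47 on the hCAR/hPXR arrays given CPA. On the hCAR/hPXR arrays given corn oil it lay between 0.09 and 0.71. It lay between -0.93 and -0.68 under CPA in wild type and between -0.70 and -0.36 in CARko/PXRko livers. Under DCB it lay between -1.01 and -0.62 in hCAR/hPXR, -0.52 and -0.18 in wild type and -0.73 and 0.06 in CARko/PXRko livers. The markers did not all move together. On CPA hCAR/hPXR replicate 2 their median level was 9.63, above the 8.84 to 9.03 of hCAR/hPXR arrays given corn oil. The part of these markers in the Fcer1g difference was not tested, and in whole liver fewer cells of a type and less RNA per cell cannot be told apart. The median of 6 hepatocyte markers lay between 14.81 and 15.01 on all 30 arrays, near the array maxima, so it shows that hepatocyte transcripts were abundant and not that their level was equal.

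The genes whose signals were most alike to each of the 7 were found by Pearson r over all 30 arrays, which share the 10 groups, so that r mostly follows genotype where a gene differs by genotype. For Nr1i3 the nearest were Nr1i2 (r = 0.78), Tmem51 (0.69) and Ctr9 (0.69), and for Nr1i2 they were Nr1i3 (0.78), Tmem51 (0.67) and Mmd2 (0.65). For Tomm40l they were Apoa2 (0.80), Gcdh (0.70) and Cyp2c50 (0.67). For Apoa2 they were Tomm40l (0.80), Cyp2c50 (0.80) and Cyp2c54 (0.72). For Tmem223 they were Fn3krp (0.75), Zbtb17 (0.53) and Ndufaf3 (0.53). Rxra and Gsk3b, which showed no called genotype difference, were most alike to Prpf8 (0.88), Plxnb2 (0.86) and Khsrp (0.86), and to Arfgef2 (0.89), Klhdc10 (0.88) and Aak1 (0.85).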

How the data were processed

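The deposited values are log2 probe set summaries made by the authors with RMA, per the submitters' processing notes; the sources used here do not give its version. Of 45037 probe sets, 34945 were annotated to 1 gene, 932 to several and 9160 to none. Each gene was read by its probe set with the highest mean over the 30 arrays and tested if 3 or more arrays had it over their median (12795 genes). Pairs of arrays correlated at 0.942 to 0.995, with 0 identical pairs, and the number of arrays limits the precision.

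All arrays entered 1 linear model of group means (limma 3.58.1, R 4.3.3), with 20 residual degrees of freedom and two-sided moderated tests. Within each comparison, Benjamini-Hochberg adjustment ran over every gene tested, and calls needed an adjusted p below 0.05. Members, gene lists and comparisons were chosen with earlier results of these data known. The genes named are the members, the 3 most alike to each, direct neighbours, Cyp2b10 and in each list and comparison up to 3 called genes, by p. The procedure was tested on simulated data. RefSeq sequences and gene order come from GRCm38.p6, while the files name no build. The alternatives were other filters on dim genes, averaging all probe sets of 1 gene, quantile normalization again, arrays centred on their median, eBayes with trend and robust, array weights, a replicate block, only the groups compared, no arrays with muscle transcripts, and each array left out in turn.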

Additional observations from a re-analysis of the deposited data

Results flagged for a closer look

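The treated arrays lay on opposite sides of their corn oil means for Tmem223 in different genotypes. Under DCB the 3 hCAR/hPXR arrays lay above their corn oil mean and the 3 wild type arrays below theirs, a difference of effects of 0.43 ± 0.18 (unadjusted p = 0.0290, limma adjusted p = 1.00). The same held for the 3 CARko/PXRko arrays under DCB, with a difference of effects of 0.29 ± 0.18 (limma adjusted p = 1.00). Under CPA the hCAR/hPXR and wild type arrays again lay on opposite sides, with a difference of effects of 0.48 ± 0.18 (unadjusted p = 0.0162, limma adjusted p = 0.989). None of the 3 differences passed the test after adjustment over all genes. The hCAR/hPXR arrays under DCB, at 7.65 to 8.13, overlapped their corn oil arrays, at 7.36 to 7.72. The CARko/PXRko arrays under DCB, at 9.71 to 9.75, overlapped theirs, at 9.46 to 9.75, and so did the wild type arrays under CPA. The wild type arrays under DCB and the hCAR/hPXR arrays under CPA did not overlap their controls.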

How the results depend on the processing

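The 11 called genotype differences in treated livers became 10 to 12 when single arrays were left out, and 7 when only the groups compared were fitted. In that smaller fit Tmem223 in hCAR/hPXR against wild type under DCB (limma adjusted p = 0.0854), Tmem223 and Tomm40l in hCAR/hPXR against CARko/PXRko under DCB (both 0.0925) and Tomm40l in CARko/PXRko against wild type (0.289) were not called. Nr1i3 kept its 3 calls under every alternative run. The Nr1i2 calls rest on a gene that passed the filter only through wild type arrays. The 0 called treatment effects became 1 with a filter at the 75th percentile, 4 with array weights (whose estimation stopped before its convergence tolerance), 1 with only the groups compared, and 0 to 2 when single arrays were left out. The 0 called differences of effects were 0 under every alternative run, and 0 to 0 when single arrays were left out. Without the arrays holding muscle transcripts the genotype count was 10. The labels do not say what the replicate numbers stand for. Deviations of same-numbered arrays correlated between -0.59 and 0.57, beside -0.64 to 0.67 for arrays of different numbers and groups. The medians were 0.05, -0.04 and 0.02 for numbers 1, 2 and 3, beside 0.01 for different numbers. Of 30 arrays, 13 correlated best with their own number. Whether same-numbered arrays share more than a label was not tested. With the replicate block the counts were 12, 0 and 0, and Tomm40l in hCAR/hPXR against wild type under CPA was called (limma adjusted p = 0.0401). With the mean of its probe sets the corn oil difference of Tomm40l in hCAR/hPXR mice reversed to -0.10, from 0.81, because its 2 probe sets differ in direction. Single-gene differences were followed through these fits if their unadjusted p was under 0.05 or, under corn oil, if the arrays did not overlap. When an array was left out, 1127 of these values were unchanged, 10 gained a call and 3 lost one. For a tested difference, unchanged means the same direction and side of the threshold. For a corn oil difference, which was not tested, it means the same direction and a shift under the pooled SD of the arrays. Signals under the array median, such as Nr1i2 outside wild type mice, and those near the top of the scale, such as Apoa2, limit what differences can be measured.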
